A study of Mus musculus with 42 samples.

Results

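Kap encodes the kidney androgen-regulated protein, and here it is described in the reproductive tracts of mice that carry mutations in the Hoxa9,10,11 and Hoxd9,10,11 genes. Its values were taken from every probe set whose single gene symbol in the platform annotation is Kap, which was 1 of 28856 probe sets and gave 1 of 19938 genes. Kap was chosen by its values in these same arrays, as the gene that stood highest in the uterus of 1 mutant over wild-type uterus. Comparisons of Kap whose group means use those mutant or wild-type uterus arrays are therefore given as descriptions, without a test.

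RNA of 4 tissues was measured on 42 Affymetrix whole-transcript arrays, in 14 groups of 3 arrays that the labels call biological replicates. All mice were adults of a CD1/129 background aged 3 to 7 months, and the females were in diestrus. Wild type (WT) was compared with 4 mutants. AKO mice are Hoxa9,10,11-/-, and DKO mice are Hoxd9,10,11-/-. AKDH mice are Hoxa9,10,11-/-d9,10,11+/-, and so lack the Hoxa genes and keep 1 copy of each Hoxd gene. AHDK mice are Hoxa9,10,11+/-d9,10,11-/-, and so lack the Hoxd genes and keep 1 copy of each Hoxa gene. Uterus and vas deferens were taken from all 5 genotypes, and oviduct and caudal epididymis from WT and AKO only. The sources used here do not say how the alleles were made or whether mice were pooled for an array. P-values therefore measure the spread between these samples, and the number of arrays limits the precision.

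Every value is a deposited log value, taken as log2, relative to the median array of its sex. The deposited table is centred so that the middle value of a probe set is 0 among the 21 female arrays, and likewise among the 21 male arrays. A Kap value near 0 thus says that an array was like most others of its sex, and not whether Kap was expressed there. Females and males were not compared.

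Kap is known as a gene of the proximal tubule of the mouse kidney, where androgens maintain its mRNA and other steroid hormones modify it. Its mRNA has also been described in the mouse uterus late in pregnancy. Posterior Hox genes encode transcription factors that pattern the reproductive tract along its length and are needed for uterine function in the adult. Uterine epithelium responds to oestrogen and progesterone over the cycle, while the vas deferens and epididymis depend on androgens.

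The gene has NCBI gene ID 16483 and the RefSeq transcript NM_010594.2, and it lies on chromosome 6. The sources used here do not name the arrays' genome build. The 250 bases before its start in RefSeq (assembly GRCm38.p6, chr6:133853668-133853917, minus strand, shown 5′ to 3′ along the gene) are printed to show which motifs of the oestrogen receptor and Hox proteins they hold. Capitals mark the 2 matches to the motifs searched.
Kap promoter: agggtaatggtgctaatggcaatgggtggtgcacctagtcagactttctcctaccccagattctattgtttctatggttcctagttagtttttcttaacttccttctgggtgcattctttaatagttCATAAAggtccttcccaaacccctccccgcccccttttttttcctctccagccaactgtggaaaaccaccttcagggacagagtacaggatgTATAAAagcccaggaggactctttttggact

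The TATA box core TATAAA had 1 match on the gene's strand, 31 bases before the start. It is found on either strand in 12.4% of 32851 RefSeq mouse promoters of the same length. The core TTTATG preferred by posterior Hox proteins had 1 match, on the opposite strand as CATAAA, 123 bases before the start, and 10.8% of promoters hold it. No match was found on either strand for the oestrogen receptor palindrome GGTCANNNTGACC (in 0.0639% of promoters) or its single arm GGTCA (35.2%). The palindrome contains this arm. These counts describe the letters of this window and no binding was measured.

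Before Kap is described, the tissues and the targeted genes were checked. A ciliated oviduct list averaged 4.84 to 5.38 in the oviduct arrays and -0.20 to 0.10 in uterus arrays. A caudal epididymis list averaged 2.86 to 3.53 in epididymis and -1.95 to 0.54 in vas deferens, and a vas deferens list -0.30 to 1.04 in vas deferens and -3.28 to -2.13 in epididymis. The libraries labelled oviduct WT replicate 2 (ovary list 1.35, next oviduct array 0.20), vas deferens AKDH replicate 3 and epididymis AKO replicate 1 (proximal epididymis list 4.88) stood apart. Of the 6 targeted genes none was called in the uterus of AHDK or DKO or in the AKO epididymis (limma, Benjamini-Hochberg adjusted p below 0.05). Hoxd11 was at -0.21, 0.00 and 0.25 in AHDK uterus and at 1.02, 0.36 and 1.19 in WT uterus (adjusted p = 0.183, limma). A probe set outside a mutated stretch checks nothing, and the sources used here do not place the probes within these genes.

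In the uterus, Kap was high in AHDK, the mutant without Hoxd9,10,11 and with 1 copy of Hoxa9,10,11. The 3 AHDK arrays were at 4.30, 3.88 and 4.75. WT uterus was at 0.01, -0.14 and 0.12, and AKO uterus at -0.12, 0.04 and 0.11. The lowest AHDK array lay far above every WT and AKO array, and WT and AKO arrays overlapped.

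DKO uterus, which lacks the Hoxd genes and keeps both Hoxa copies, had Kap values of 1.92, 0.82 and -0.02. AKDH uterus, the converse of AHDK, was at 0.00, -0.20 and 0.78. In each of these groups the arrays were spread out: 2 of 3 DKO arrays and 1 of 3 AKDH arrays lay above all WT arrays, AKDH replicate 2 lay just below them, and the others lay among them. No array of DKO or AKDH came near the AHDK arrays.

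**Figure D1:**
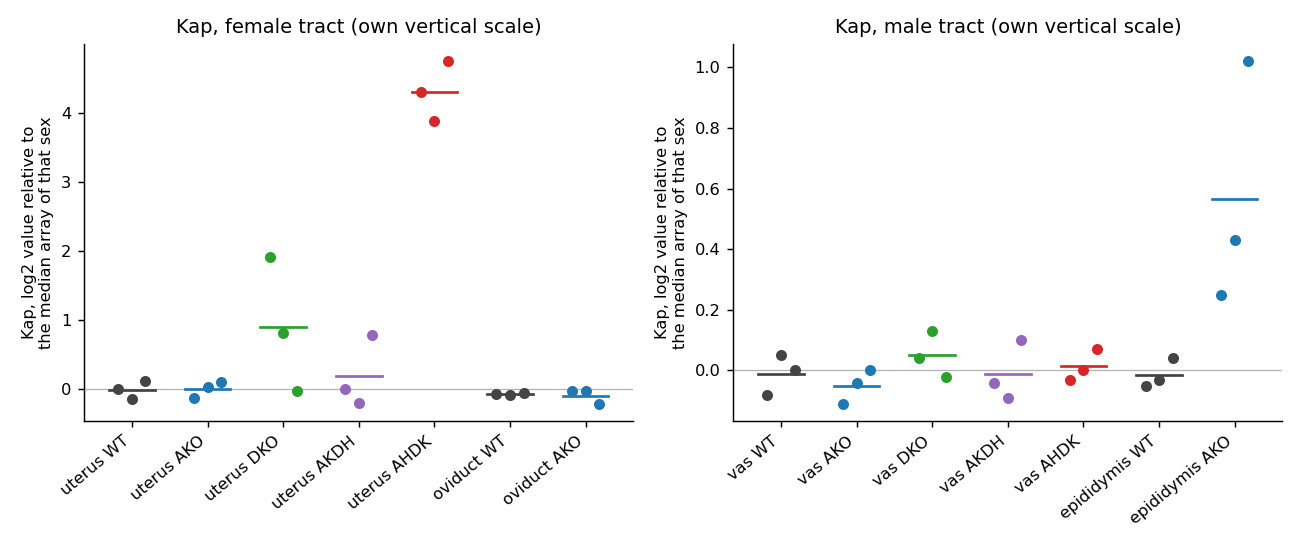
Kap in every array of the female (left) and male (right) tract, as log2 value relative to the median array of that sex, with a separate vertical scale for each sex. Dots are single arrays in replicate order and bars are the means of 3 arrays; the AHDK uterus arrays lie between 3.88 and 4.75, and the AKO epididymis arrays between 0.25 and 1.02.

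Group means were 4.31 ± 0.43 (SD, n = 3) in AHDK, 0.91 ± 0.97 (SD, n = 3) in DKO and 0.19 ± 0.52 (SD, n = 3) in AKDH. They were 0.01 ± 0.12 (SD, n = 3) in AKO and 0.00 ± 0.13 (SD, n = 3) in WT. The difference between AHDK and WT was 4.31 ± 0.40 (SE), or 19.9-fold, and it was the largest of all 19938 genes. In that contrast 3.53% of genes were called, 2.3% higher and 1.23% lower, and nothing is read from this for Kap because the contrast chose it. AHDK exceeded AKO by 4.30 (19.7-fold), AKDH by 4.11 (17.3-fold) and DKO by 3.40 (10.6-fold), each with an SE of 0.40. Leaving out any 1 array left the difference between AHDK and WT at 4.09 to 4.53 and that between AHDK and DKO at 2.94 to 3.91.

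All 3 AHDK arrays lay above the other 18 female arrays for Kap. The same was true of 160 genes, 0.802% of those tested. In whole tissue, more cells that express a gene and more of its RNA per cell cannot be told apart.

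Comparisons among AKO, DKO and AKDH uterus were tested, since their group means used neither WT nor AHDK arrays. The estimate of spread was shared by all uterus arrays. WT and AHDK arrays, which chose Kap, thus entered the SEs, intervals and p-values. Kap was higher in DKO than in AKO by 0.90 ± 0.40 (SE; 95% interval 0.03 to 1.77), with an adjusted p of 0.351 (limma). It did not pass in a contrast where 0.186% of genes did, although its unadjusted p was below 0.05. That was also true of 2714 of all 19938 genes. Without 1 array in turn that difference ranged from 0.39 to 1.36, and it was lowest without DKO replicate 1. AKDH minus AKO was 0.19 (interval -0.69 to 1.06, adjusted p = 0.935, limma) and AKDH minus DKO was -0.71 (interval -1.58 to 0.16, adjusted p = 0.416, limma). With these wide intervals the data cannot show whether the 3 mutants differ. As descriptions, DKO exceeded WT by 0.91, AKDH exceeded WT by 0.20 and AKO exceeded WT by 0.01, each with an SE of 0.40. With 1 array left out, DKO minus WT ran from 0.40 (without DKO replicate 1) to 1.37 (without DKO replicate 3). AKDH minus WT ran from -0.10 (without AKDH replicate 3) to 0.40 and AKO minus WT from -0.06 to 0.08, so neither kept its sign.

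AHDK and DKO both lack the Hoxd genes and differ by 1 copy of the Hoxa genes. Kap was higher in AHDK by 3.40, given without a test because the AHDK arrays chose it. Of all genes 0.0251% passed in this contrast (limma, adjusted p below 0.05), and nothing is read from this for Kap. Genes other than Kap that passed are named because they are so few, after their values were seen. Smpd3, a sphingomyelinase, was higher by 0.84. Cldn8, a tight junction claudin, was lower with a difference of -1.09. Rxfp2, the receptor of insulin-like peptide 3, had a difference of -2.60, and Slc26a7, an anion transporter, one of -2.76.

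The genes that stood next highest in AHDK over WT uterus differed in their DKO values. Retnlg, a resistin-like gene of neutrophils, was at 3.57, 3.31 and 3.29 in AHDK but also at 4.03, 2.55 and 2.84 in DKO. Its AHDK minus DKO difference was 0.25, against 3.40 for Kap. Serpina1c, an alpha-1-antitrypsin gene, was at 1.93, 1.65 and 1.90 in AHDK and at -0.12, -1.71 and -2.79 in DKO, with a difference of 3.37. Sprr2b, a small proline-rich protein gene of oestrogen-exposed epithelium, was at 4.63, 2.56 and 4.15 in AHDK and at 4.03, 0.53 and -0.31 in DKO. Its highest DKO array was replicate 1, which was also the highest DKO array for Kap.

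Over the 21 female arrays, the genes most like Kap by Pearson correlation were Mxd1 (0.95), Trim15 (0.95), Fcgr4 (0.95), Tmprss11d (0.93), Stat2 (0.92), Ly6i (0.92), Oasl1 (0.92) and Wfdc8 (0.92). Mxd1 encodes a MYC antagonist, Fcgr4 an immunoglobulin G receptor of myeloid cells, and Tmprss11d an airway-type transmembrane protease. Stat2 and Oasl1 belong to the interferon response. These coefficients rest largely on the AHDK arrays. Over the 18 arrays without AHDK they were 0.74 for Mxd1, 0.65 for Trim15, 0.83 for Fcgr4, 0.81 for Tmprss11d and 0.67 for Stat2. Spearman's rho over all 21 arrays was 0.22 for Trim15 and 0.76 for Stat2. The points share tissue, genotype and array normalisation, so the coefficients are a description.

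Inside the DKO group Mxd1, Fcgr4 and Tmprss11d had the same highest array as Kap. They were picked by their likeness to Kap over arrays that include DKO, so this follows in part from the choice. Mxd1 was at 1.19, 1.19 and 1.25 in AHDK and at 0.75, 0.10 and 0.17 in DKO. Fcgr4 was at 1.42, 0.97 and 1.12 in AHDK and at 0.85, 0.01 and 0.09 in DKO. For both genes DKO replicate 1 stood above the other DKO arrays and below the AHDK arrays, as it did for Kap. Tmprss11d was at 3.45, 1.72 and 2.75 in AHDK and at 2.23, 0.20 and -0.01 in DKO, so that DKO replicate 1 lay above the lowest AHDK array. DKO replicate 2, with Kap at 0.82 and above all WT arrays, had Mxd1 at 0.10, Fcgr4 at 0.01 and Tmprss11d at 0.20, each inside the range of its WT arrays.

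Genes most unlike Kap over the female arrays were Arsj (-0.85), Ankrd24 (-0.83), Prkag2 (-0.80) and Fam120c (-0.80). Arsj, an arylsulfatase gene, was at -1.57, -1.10 and -1.31 in AHDK and at -1.28, -0.20 and 0.04 in DKO. For Arsj, also picked by its values in these arrays, DKO replicate 1 lay within the range of the AHDK arrays.

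**Figure D2:**
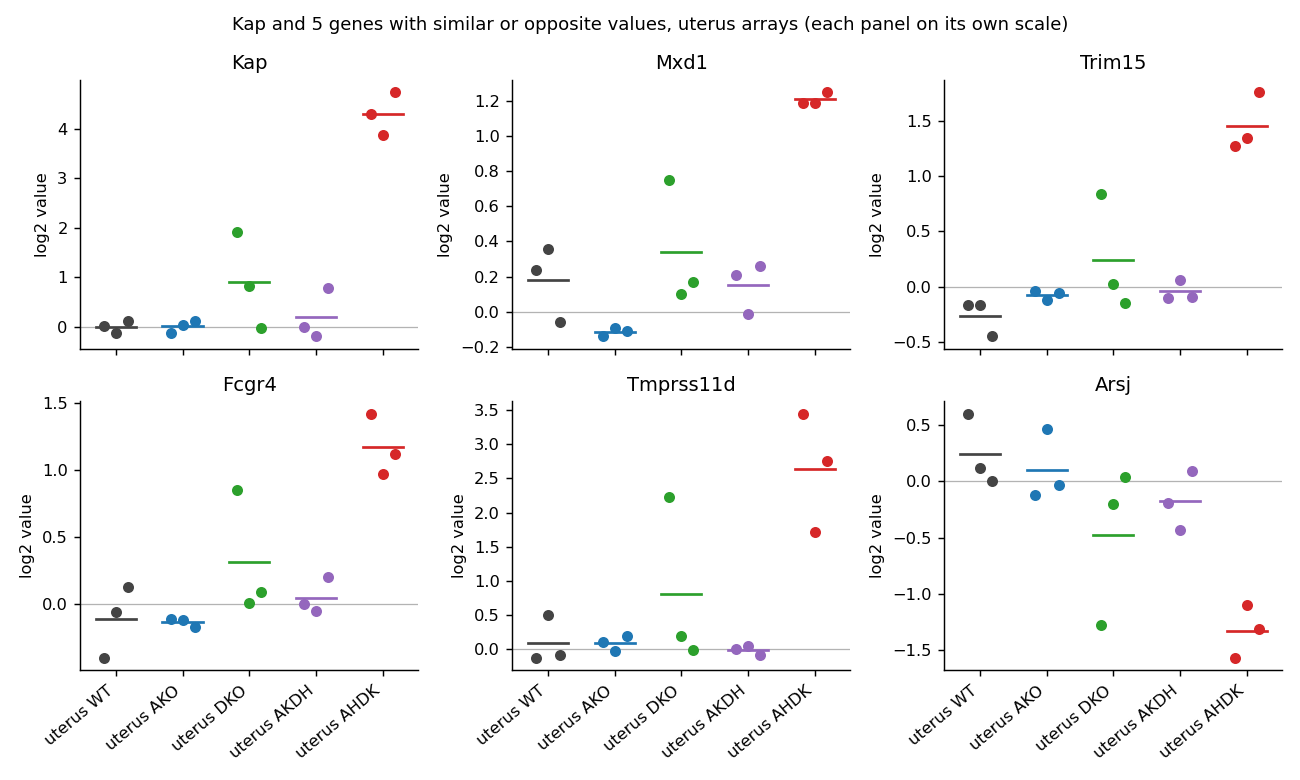
Kap, the 4 genes most like it over the female arrays and the gene most unlike it (Arsj), in the 15 uterus arrays as log2 values relative to the median female array, each panel on its own scale. Dots are arrays and bars are means of 3; in each panel AHDK stands apart from WT and 1 DKO array, the one with Kap at 1.92, lies towards AHDK.

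Genes that androgens control in the kidney were described as the nearest known pathway of Kap. Over all 19938 genes, 3.53% were called between AHDK and WT uterus, and 4260 had an unadjusted p below 0.05 (limma). The counts of the uterus lists below stand against these. Of 12 such genes measured, 8 were higher and 4 lower in AHDK than in WT uterus and none was called (limma; 1 had an unadjusted p below 0.05), with a median difference of 0.13 against -0.02 over all genes. Gusb, the lysosomal beta-glucuronidase, was at 0.52, 0.48 and 0.45 in AHDK and at 0.10, 0.21 and 0.00 in WT. The difference of 0.38 had an adjusted p of 0.0612 (limma). Odc1, the ornithine decarboxylase of polyamine synthesis, was at -0.01, -0.21 and 0.14 in AHDK and at -0.97, -0.34 and 0.18 in WT, and these overlapped. The mean of the list lay between -0.21 and 0.29 over all uterus arrays, and at -0.03, 0.02 and 0.00 in AHDK. A list of androgen-controlled genes of the male tract had 5 of 15 members higher and 10 lower, none called and 0 with an unadjusted p below 0.05 (limma), with a median of -0.05.

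Kidney tubule genes are given because Kap is known as a gene of that tubule. Of 16 measured, 3 were higher and 13 lower in AHDK than in WT uterus, none was called (limma; 3 at an unadjusted p below 0.05), and their median was -0.13. Their mean was -0.27, -0.13 and -0.21 in AHDK, at the low end of the range of -0.27 to 0.29 over uterus arrays. Slc34a1, the phosphate transporter of the proximal tubule, was at -0.17, 0.08 and -0.06 in AHDK. The part of kidney tissue in the Kap values was not tested.

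Among 9 hormone receptor genes, 4 were higher and 5 lower in AHDK and none was called (limma; 2 at an unadjusted p below 0.05), with a median of -0.10. Esr1, the oestrogen receptor alpha gene, was at -0.45, -0.31 and -0.27 in AHDK and at 0.01, -0.02 and -0.15 in WT. The difference of -0.29 had an adjusted p of 0.0812 (limma). Of 11 genes of steroid synthesis and breakdown, 8 were higher and 3 lower, with a median of 0.25. Hsd17b2, which oxidises oestradiol and testosterone to weaker forms, was the 1 member called. It was at 1.34, 1.2 and 1.35 in AHDK, at -0.66, -0.36 and -0.46 in WT and at -0.02, -0.45 and -0.57 in DKO. The AHDK minus WT difference was 1.79 ± 0.25 (SE, adjusted p = 0.0089, limma). No member was called without AHDK replicate 1, and 2 were without WT replicate 2.

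Most genes known to respond to oestrogen in the uterus had higher values in AHDK than in WT, although few passed the test. Of 19 measured, 14 were higher and 5 lower than in WT, with a median of 1.17 against -0.02 over all genes. While 3.53% of all genes were called, 1 of the 19 was (limma). This was Sprr2e, at a difference of 0.75 (adjusted p = 0.0418), and none was called without AHDK replicate 1, AHDK replicate 3, WT replicate 1 or WT replicate 3. Without WT replicate 2, 2 were called higher and 1 lower. With all 21 female arrays in the fit 5 were called. Sprr2b had the widest difference of those named, 3.12, with an adjusted p of 0.102 (limma). The mean of the list was 0.90, 0.70 and 0.93 in AHDK and -0.86, 0.61 and -0.31 in WT, so the WT arrays differed more among themselves than from AHDK at their nearest. In DKO it was 0.58, 0.46 and -0.50, the same order of arrays as Kap at 1.92, 0.82 and -0.02. In AKO it was 0.60, 0.03 and 0.31 with Kap at -0.12, 0.04 and 0.11. In AKDH it was 0.11, 0.04 and -0.74 with Kap at 0.00, -0.20 and 0.78. There the array with the highest Kap had the lowest mean of the list. Of the 19 genes, 17 were higher and 2 lower in AKO than in WT uterus, where Kap differed by 0.01. All females were labelled diestrus, and the part of oestrogen or cycle stage in the Kap values was not tested.

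Genes of the pregnant uterus had 10 of 17 members higher and 7 lower in AHDK, none called (limma; 3 at an unadjusted p below 0.05), with a median of 0.01. Wnt4, a signal of decidualisation, had a difference of 1.05 (adjusted p = 0.0792, limma), and Hsd11b2, which inactivates glucocorticoids, one of -1.77 (adjusted p = 0.155, limma). Luminal epithelium genes had 10 of 13 members higher, with a median of 0.22. None was called but 5 had an unadjusted p below 0.05 (limma), as had 4260 of all 19938 genes. Of 11 gland genes 4 were higher and 7 lower, with a median of -0.82. Lif, the implantation cytokine, was called higher by 0.54 and Foxa2, a gland transcription factor, was called at -0.87 (limma). No gland gene was called after quantile normalisation, or with any 1 array left out other than WT replicate 1, which left 2 called lower. Smooth muscle genes had 1 of 10 members higher and 9 lower, none called and 0 at an unadjusted p below 0.05 (limma), with a median of -0.36.

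Markers of immune cells were also higher where Kap was high. All 14 macrophage and class II genes were higher in AHDK than in WT uterus, with a median of 1.02. Of the 14, 8 were called (limma), while 2.3% of all genes were called higher. Cd74, the class II invariant chain, was at 0.67, 0.79 and 0.47 in AHDK and at -0.20, -0.26 and -0.40 in WT, a difference of 0.93 (adjusted p = 0.00916). None of the 14 was called without AHDK replicate 1, 3 were called without WT replicate 2 or without WT replicate 3, and 4 without AHDK replicate 2 or without WT replicate 1. The mean of this list was 0.99, 0.85 and 0.55 in AHDK, 0.78, 0.26 and 0.46 in DKO and -0.15, -0.35 and -0.16 in WT. Within AHDK, the array with the highest Kap, 4.75, had the lowest macrophage mean, 0.55. Within DKO, the array with the highest Kap, 1.92, had the highest macrophage mean, 0.78.

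Of 12 neutrophil and eosinophil genes 10 were higher and 2 lower in AHDK, 2 were called (Retnlg and Ccr3, the eotaxin receptor gene) and the median was 0.57. Neither was called after quantile normalisation, nor without AHDK replicate 1, AHDK replicate 3 or WT replicate 3. Their mean was 1.32, 0.70 and 1.05 in AHDK and 1.63, 0.49 and 0.51 in DKO. The third DKO array had immune list means of 0.46 and 0.51, with Kap at -0.02. In AKDH the array with Kap at 0.78 had the highest macrophage mean of its group, 0.38 against -0.11 and -0.01. Its neutrophil and eosinophil mean was the lowest of its group, 0.10 against 0.29 and 0.36. The part of immune cells in the Kap values was not tested.

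**Figure D3:**
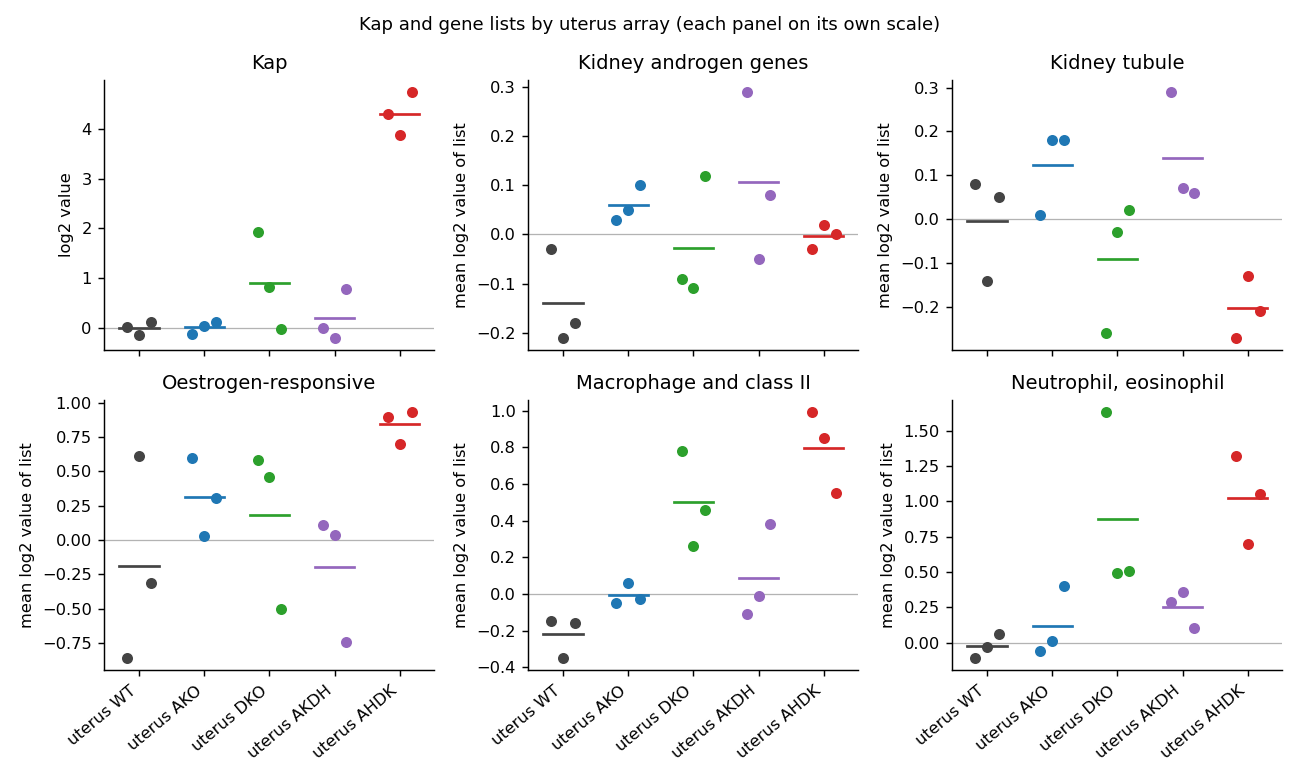
Kap and the mean of 5 gene lists in the 15 uterus arrays, as log2 values relative to the median female array, each panel on its own scale. Dots are arrays and bars are means of 3. The oestrogen, macrophage and neutrophil lists are high in AHDK with Kap. The kidney tubule list is low there, between -0.27 and -0.13. DKO replicate 1 also has high macrophage (0.78) and neutrophil (1.63) means and a low kidney tubule mean (-0.26).

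In the oviduct, Kap stayed close to the female median in both genotypes. WT oviduct was at -0.07, -0.08 and -0.06 and AKO oviduct at -0.03, -0.03 and -0.21. The groups overlapped, and AKO minus WT was -0.02 (interval -0.19 to 0.15, adjusted p = 1, limma), which bounds any change well below the AHDK difference in the uterus. AKO oviduct minus AKO uterus was -0.10 (interval -0.83 to 0.64, adjusted p = 0.885, limma). Its spread was estimated over all female arrays, the WT and AHDK uterus arrays among them. As descriptions, WT oviduct minus WT uterus was -0.07 ± 0.35 (SE), and the AKO effect in oviduct minus that in uterus was -0.03 ± 0.49 (SE). The library labelled oviduct WT replicate 2 had Kap at -0.08, among the others. AHDK oviduct was not among the groups.

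Kap's spread over the female arrays was large because of AHDK. Its SD over the 21 arrays was 1.57, rank 145 of 19938 genes, where the median gene had 0.19. Without the AHDK arrays the SD was 0.52, rank 2338. Of those 18 arrays 15 lay between -0.25 and 0.25, and the exceptions were DKO replicates 1 and 2 and AKDH replicate 3.

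In the vas deferens, Kap did not differ measurably between genotypes. WT was at -0.08, 0.05 and 0.00, AKO at -0.11, -0.04 and 0.00, and DKO at 0.04, 0.13 and -0.02. AKDH was at -0.04, -0.09 and 0.10 and AHDK at -0.03, 0.00 and 0.07. All 5 groups overlapped. The 8 contrasts lay between -0.04 and 0.10 with intervals inside -0.17 to 0.23, and none was called (adjusted p from 0.316 to 0.995, limma). None had an unadjusted p below 0.05, while 9.35% of genes were called for AKO, 5.87% for DKO, 24.3% for AKDH and 4.15% for AHDK against WT. For AHDK against WT the vas deferens interval was -0.12 to 0.15.

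In the caudal epididymis, Kap was somewhat higher in AKO. WT was at -0.05, -0.03 and 0.04 and AKO at 0.25, 0.43 and 1.02. All 3 AKO arrays lay above all 3 WT arrays and above the other 18 male arrays, which ranged from -0.11 to 0.13. The first was true of 13.1% of all genes and the second of 2.13%, so neither count sets Kap apart by itself. Means were 0.57 ± 0.40 (SD, n = 3) and -0.01 ± 0.05 (SD, n = 3).

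The difference within the epididymis was 0.58 ± 0.19 (SE; 95% interval 0.11 to 1.05), or 1.49-fold. Its adjusted p was 0.225 (limma), and it was not called in a contrast where 0.782% of genes were (0.411% higher and 0.371% lower). Its unadjusted p was below 0.05, as was that of 3193 of all 19938 genes. When all 21 male arrays shared the estimate of spread, the adjusted p was 0.0146 (limma), but Kap varied less in the other male groups than in AKO epididymis. Without any 1 array the difference was 0.35 to 0.74, and it was lowest without AKO replicate 3, the array with Kap at 1.02.

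Compared across the male tract, Kap was higher in AKO epididymis than in AKO vas deferens by 0.61 ± 0.13 (SE; 95% interval 0.34 to 0.89), or 1.53-fold. This was called (adjusted p = 0.00365, limma), as were 15.5% of genes. It stayed called without any 1 of its 6 arrays (0.39 to 0.77, adjusted p from 0.000322 to 0.0223), but the adjusted p was 0.095 when only these 2 groups were fitted. WT epididymis minus WT vas deferens was -0.01 (interval -0.28 to 0.27, adjusted p = 0.983, limma).

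The AKO effect was larger in the epididymis than in the vas deferens by 0.62 ± 0.18 (SE; 95% interval 0.24 to 1.00), with an adjusted p of 0.049 (limma), and 7.22% of genes were called in the same test. With the replicate number as a block the value was 0.62 with an adjusted p of 0.0986, so the call was lost. It was also lost after quantile normalisation, with probe sets in place of genes, with 4 groups in the fit, and without any 1 of the WT arrays of either tissue or the AKO vas deferens arrays, with values of 0.40 to 0.78 over the 12 arrays left out. Of 17 tested contrasts 2 were called, and 4 had an unadjusted p below 0.05.

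**Figure D4:**
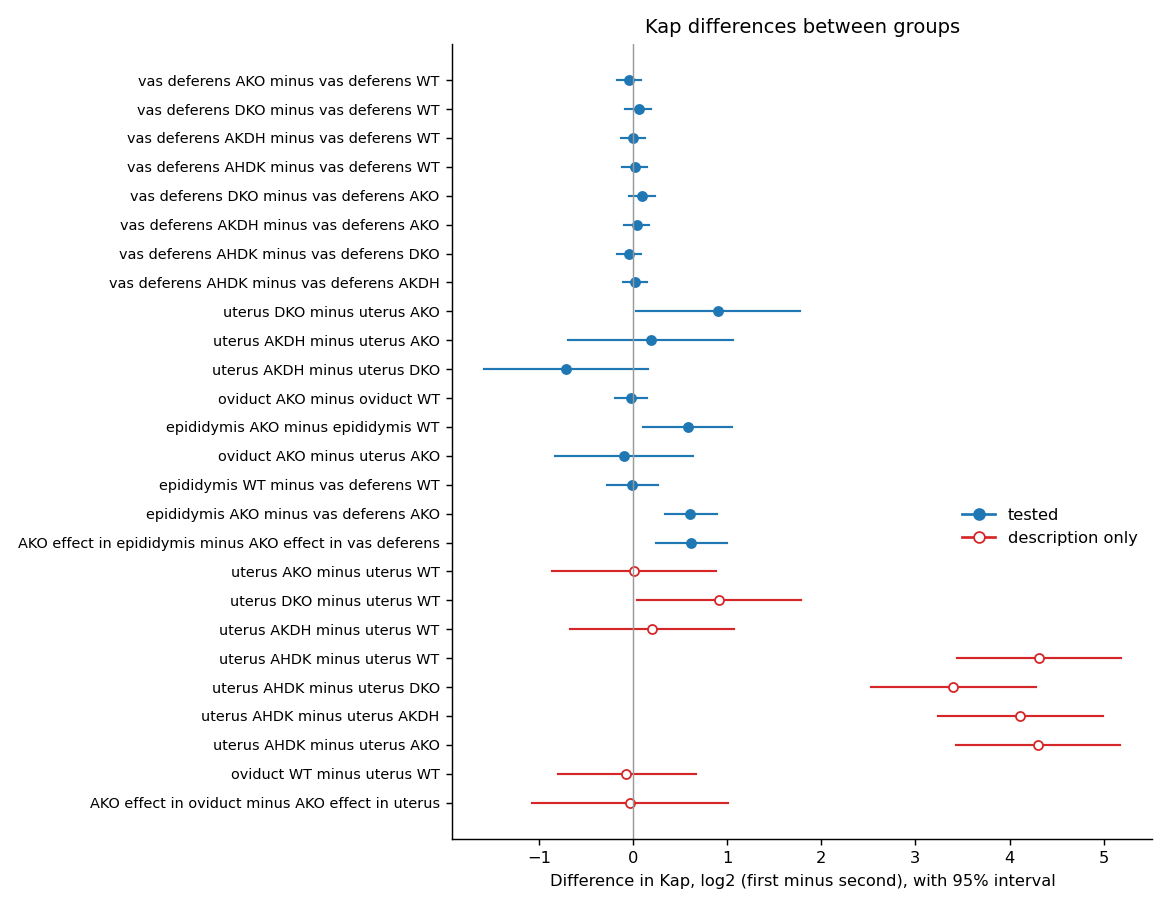
Kap differences between groups as log2 values with 95% intervals from limma. Filled points are tested contrasts and open points are descriptions whose group means use WT or AHDK uterus arrays. The vas deferens contrasts lie within -0.17 to 0.23, the AKO epididymis contrasts near 0.6, and the AHDK uterus contrasts between 3.40 and 4.31.

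Sperm genes were lower in the AKO than in the WT epididymis arrays. All 8 sperm genes were lower in AKO than in WT, with a median of -3.70 against 0.02 over all genes. Of the 8, 4 were called (limma), while 0.371% of all genes were called lower. Prm1, the sperm protamine gene, was at -1.87, -1.94 and -2.01 in AKO and at 3.48, 2.61 and 2.75 in WT. Leaving out 1 array gave 3 to 7 calls, with 7 without WT replicate 1, and all 8 were called with the 21 male arrays in the fit. The mean of the sperm list was -1.06, -0.66 and -0.76 in AKO epididymis and 3.59, 2.22 and 2.50 in WT epididymis. It was also low in AKO vas deferens, -1.23, -0.97 and -0.98 against 0.36, 0.11 and 0.80 in WT, and Kap in AKO vas deferens was at -0.11 to 0.00.

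Smooth muscle genes had 9 of 10 members lower in AKO epididymis, with a median of -1.05. Des, the muscle filament desmin, was the 1 member called, at -1.64 (adjusted p = 0.0473, limma), and it was not called without any 1 of the 6 arrays, while 6 members were with all male arrays in the fit. The list mean was -1.65, -1.19 and -1.70 in AKO and -0.17, -0.70 and -0.84 in WT. The 10 stroma genes were all lower, none called but 4 at an unadjusted p below 0.05 (limma), with a median of -0.37. In this contrast 0.782% of all 19938 genes were called and 3193 had an unadjusted p below 0.05 (limma). All 9 proximal epididymis genes were higher, none called and 0 at an unadjusted p below 0.05, and their mean was 4.88, 0.02 and 0.22 in AKO and 0.16, 0.24 and 0.15 in WT. The array with 4.88 had the lowest Kap of its group, 0.25. The part of sperm, muscle and epididymal segment in the Kap values was not tested.

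No listed androgen-controlled gene was called in the AKO epididymis, in a contrast where 0.782% of all genes were. The absence of a call in lists this short therefore says little about these genes. Over all 19938 genes, 3193 had an unadjusted p below 0.05 (limma). Of 12 kidney androgen genes 4 were higher and 8 lower in AKO, none called (limma; 5 at an unadjusted p below 0.05), with a median of -0.12. Of 15 male tract androgen genes 9 were higher and 6 lower, none called (4 at an unadjusted p below 0.05), with a median of 0.02. Lcn5, an epididymal lipocalin, was at 5.41, 2.81 and 2.84 in AKO and at -0.99, -0.89 and -0.29 in WT, a difference of 4.41 (adjusted p = 0.0625, limma). Its 3 AKO arrays lay above its 3 WT arrays, as was true of 13.1% of all genes. The highest array for Lcn5 was the AKO array with the lowest Kap. Of 9 hormone receptor genes 2 were higher and 7 lower (median -0.25), and of 11 steroid genes 9 were higher and 2 lower (median 0.08), none called in either (3 and 2 at an unadjusted p below 0.05). Kidney tubule genes had 12 of 16 members higher, none called (2 at an unadjusted p below 0.05), with a median of 0.09. For the difference of AKO effects (epididymis minus vas deferens), 9 of 12 kidney androgen genes were lower and 3 higher. Of these 12, 6 were called lower (limma), with a median of -0.34. Of 15 male tract androgen genes 12 were lower and 3 higher, with 4 called lower and 1 called higher. Over all 19938 genes, 791 were called higher and 648 lower in that test. The part of androgens in the Kap values was not tested.

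**Figure D5:**
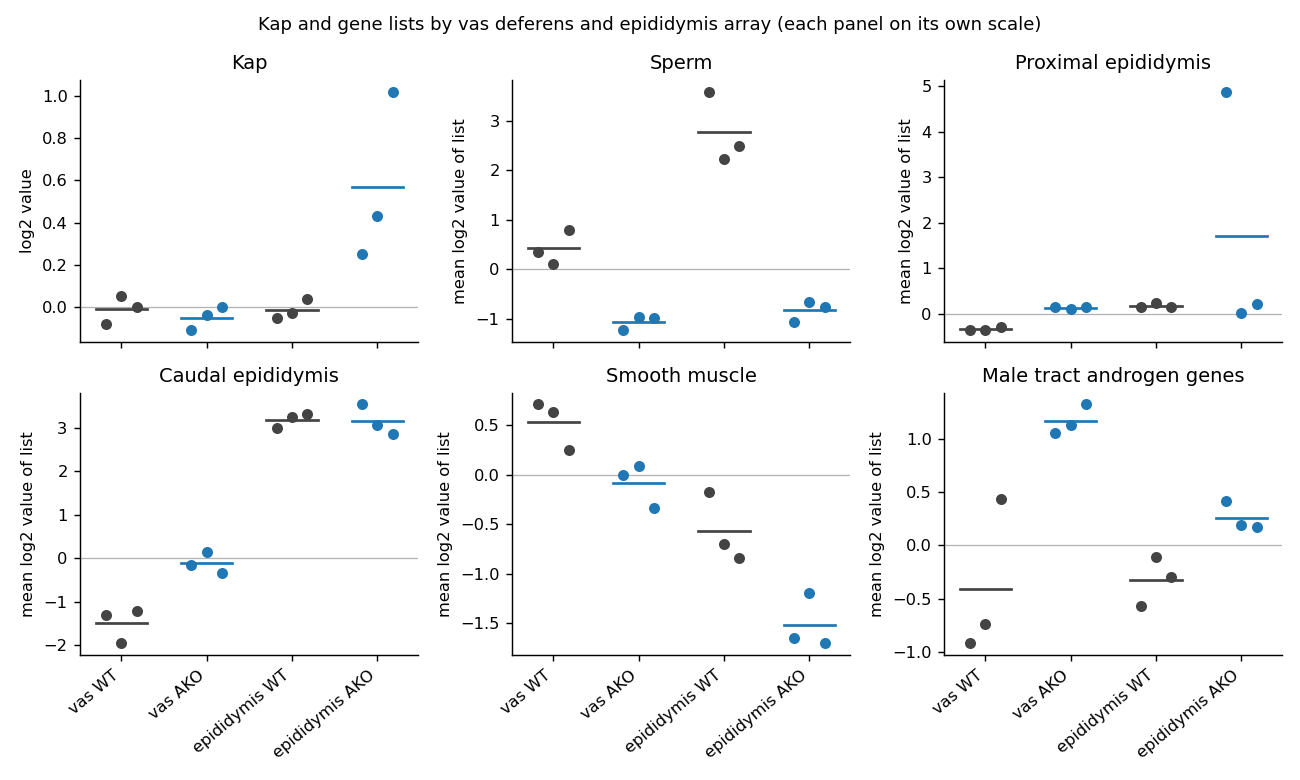
Kap and the mean of 5 gene lists in the WT and AKO arrays of vas deferens and epididymis, as log2 values relative to the median male array, each panel on its own scale. Dots are arrays and bars are means of 3; Kap is raised in the 3 AKO epididymis arrays, the sperm list is low in AKO of both tissues, and 1 AKO epididymis array has a proximal epididymis mean of 4.88.

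Over the 21 male arrays, the genes most like Kap were Rag2 (0.92), Slitrk4 (0.90), Nlrp4f (0.90), Arhgef4 (0.87), Zmat4 (0.86), Rfx4 (0.84), Abcc8 (0.84) and Otof (0.84). Without the AKO epididymis arrays the coefficients were 0.39 for Rag2, 0.32 for Slitrk4 and 0.00 for Nlrp4f, so the likeness lay in those 3 arrays. Slitrk4, a neuronal membrane protein gene, was at 0.22, 0.92 and 1.14 there, and Nlrp4f at 0.21, 0.65 and 0.82. Both had the order of Kap at 0.25, 0.43 and 1.02. The most unlike genes were Tbl1xr1 (-0.88), Cr1l (-0.82), Zfp90 (-0.82) and Ccni (-0.81). Tbl1xr1, a corepressor subunit, was at -0.22, -0.45 and -0.77 in the same arrays. No gene was named as most like or most unlike Kap in both sexes.

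Kap's SD over the male arrays was 0.25, rank 6214 of 19938 genes, where the median gene had 0.17. Without the AKO epididymis arrays it was 0.06, rank 18275, and all 18 arrays lay between -0.25 and 0.25.

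In the order of group means, the gap between AHDK uterus and DKO uterus (3.40) was the only one among female groups whose neighbours did not overlap. Among male groups it was the gap between AKO epididymis and DKO vas deferens (0.52). All other neighbours overlapped.

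Genes beside Kap on chromosome 6 did not share its values. The 4 named genes nearest on one side in the RefSeq order were Tas2r109, Tas2r103, Tas2r140 and Smim10l1, and on the other Etv6, Bcl2l14, Lrp6 and Mansc1. Their AHDK minus WT uterus differences lay between -0.26 for Mansc1 and 0.25 for Bcl2l14. Of the 8 genes 0 were called (limma), against 3.53% of all genes. In the epididymis AKO minus WT lay between -0.86 for Bcl2l14 and 0.03 for Tas2r103. There 0 of 8 were called, against 0.782% of all genes, with a lowest adjusted p of 0.0805 (limma). With so few genes the absence of calls says little in either tissue, and Kap itself was not called in the epididymis.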

How the data were processed

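Column-purified total RNA was made into biotin-labelled cDNA, per the labels' protocols. The authors deposited values for 28856 probe sets on 42 arrays, taken here as log2, which they had centred to a median of 0 per probe set within each sex, as the values show. The sources used here do not name the log base, the summarisation, the normalisation, signal over background or the array build. Higher values were read as more RNA. Array medians ran from -0.0538 to 0.0371 and array SDs from 0.177 to 0.644.

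The platform annotation gave 21789 probe sets 1 symbol, 1621 several and 5446 none. Of the first, 21698 matched the RefSeq table (GRCm38.p6) by gene ID. Probe sets of a gene were averaged, giving 19938 genes, 18939 of them with 1 probe set and 999 with more. Listed genes without a value were not analysed here.

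limma 3.58.1 (R 4.3.3; lmFit, eBayes) was fitted to the arrays of 1 tissue, or to the 21 of a sex where tissues were compared. Benjamini-Hochberg adjustment ran over all genes, with calls at an adjusted p below 0.05. The fits were tested on simulated data. Alternatives were quantile normalisation, centring on array medians, other arrays in the fit, a filter on spread, probe sets, a robust prior, 3 libraries left out, each array left out and a replicate block. A filter on dim probe sets could not be run on centred values.

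Kap and the 22 gene lists were chosen with earlier results of these data known. Named genes were Kap, up to 4 members of a list by smallest adjusted p, the 8 genes most and 4 least correlated with Kap in each sex, 4 neighbours on each side and the 6 targeted genes. Genes chosen outside this rule after their values were seen were Slc34a1, the genes next highest in AHDK, the genes called between AHDK and DKO, Retnlg and Ccr3.

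The titles' replicate numbers were checked as pairs by correlating same-numbered deviations from group means over genes. In 4 of 42 pairs of groups all 3 correlations passed 0.1. These were vas deferens with epididymis in WT (0.29, 0.18, 0.28) and in AKO (0.14, 0.14, 0.19), AKO uterus with AKO oviduct (0.16, 0.46, 0.46) and WT with AKO oviduct (0.22, 0.29, 0.48). The labels do not say what a number shares.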

Additional observations from a re-analysis of the deposited data

Results flagged for a closer look

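The AKO effect on Kap differed between the 2 male tissues, by 0.62 on the log2 scale (epididymis minus vas deferens), in a test of the difference itself (limma, adjusted p = 0.049). All 3 AKO epididymis arrays lay above all 3 WT epididymis arrays, as was true of 13.1% of all genes. The AKO and WT vas deferens arrays overlapped. With the replicate number as a block the adjusted p was 0.0986. The test pooled the spread of all male arrays, while the SD of Kap was 0.40 in AKO epididymis and 0.05 to 0.10 in the other male groups.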

How the results depend on the processing

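Over 26 Kap results, 281 of 319 alternative values were counted as unchanged. For tested contrasts this meant the same direction and the same side of the threshold. For the descriptions it meant a shift smaller than the pooled SD of the groups, so a turned sign could still count as unchanged. The difference of AKO effects (0.62, adjusted p = 0.049, limma) missed the threshold after quantile normalisation (0.52), with 4 groups fitted, with probe sets, or with the replicate block (0.62 each; adjusted p = 0.0575, 0.137, 0.0573 and 0.0986), and with 1 array left out ranged from 0.40 to 0.78. AKO epididymis minus AKO vas deferens (0.61) missed it with 2 groups fitted, and AKO minus WT epididymis (0.58) passed it with all male arrays. In both, the fit with more arrays shared its spread with groups whose Kap SD was 0.05 to 0.10, against 0.40 in AKO epididymis. Other reasons were not tested. The replicate block changed no other call.

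Signs turned where Kap lay near 0. In vas deferens AKDH minus WT was 0.053 after quantile normalisation, 0.033 after centring on medians and -0.05 to 0.039 with 1 array left out, and AHDK minus AKDH was -0.013, -0.007 and -0.02 to 0.07. With 1 array left out, AHDK minus WT ran from -0.016 to 0.05, AHDK minus DKO from -0.07 to 0.00028, and AKDH minus AKO from -0.01 to 0.08 (-0.013 without the 3 libraries that stood apart). AKDH minus AKO uterus ran from -0.11 to 0.38. AKO minus WT oviduct was 0.0021 after quantile normalisation and -0.05 to 0.042 with 1 array left out, and WT epididymis minus WT vas deferens was 0.013, 0.0034 (medians) and -0.04 to 0.024.

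Counts over all genes moved more. AHDK over WT uterus had 704 calls, and 20 higher and 11 lower without AHDK replicate 1. Epididymis AKO had 82 higher and 74 lower, and 597 and 415 with all male arrays.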
